A study of Mus musculus with 8 samples.

Results

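Translation initiation factors (eIFs) and elongation factors (eEFs) are the proteins that load ribosomes onto messages and move them along the coding sequence. The factors described here were chosen by name: every row of a mouse transcript count table whose RefSeq identifier maps to a protein-coding symbol beginning with Eif or Eef and a digit, leaving out the eIF4E-binding proteins, the eIF2 kinases and eEF2 kinase. With 1 row per gene, the row with the highest summed count, 60 genes were found among the 21643 genes with a symbol in the table. They fall into 8 groups by function: 5 genes of eIF1 and eIF1A, 6 of eIF2 and the alternative carriers of initiator tRNA, 5 of eIF2B, 13 of eIF3, 14 of eIF4, 5 of eIF5, eIF5A, eIF5B and eIF6, 7 of eEF1 and eEF2, and 5 that encode lysine methyltransferases acting on eEF1A or carry such a gene in a readthrough transcript.

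The libraries hold messages from a polyribosome preparation, the RNA associated with groups of translating ribosomes, from C57BL/6 mice aged 7 to 9 weeks. Each of the 8 libraries is 1 combination of tissue (frontal cortex, dissected as prefrontal cortex, or hippocampus), training (contextual fear conditioning, or a control exposed to the context alone) and time (1 h or 6 h after the session). The labels' protocol text states an n of 4 per arm, but the labels do not say whether a library is 1 animal or a pool. The series' design text names prefrontal cortex alone. Total RNA was not analysed here, so the amount of a message and its loading with ribosomes cannot be told apart, nor can fewer cells of a type and less RNA per cell. Time after the session and clock time also cannot be told apart.

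Library totals ran from 2370973 to 5296986 counts, and the 60 factors took 0.554% to 0.639% of them. The conditioned 1 h libraries, 1 labelled cortex and 1 labelled hippocampus, agreed within sampling noise. Over 11338 genes the mean squared standardised difference was 1.06 for this pair, where 1 is counting noise alone, and 4.74 for the next closest pair of libraries. They were counted as 1 sample and given no tissue, which leaves 7 samples. The summed level of 7 hippocampal markers was 260 and 252 CPM (counts per 1000000 counts of a library, scaled by the trimmed mean of M values, TMM) in this pair, 54.8 to 73.9 CPM in the other cortex libraries and 473 to 933 CPM in the other hippocampus libraries. All results below name these 2 libraries by their labels. The hippocampus control library at 6 h also stood apart. It had the lowest total, the lowest scaling factor (0.762, against 0.990 to 1.10 in the others) and the highest level of the nuclear RNA Malat1, at 14499 CPM.

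Initiation begins when eIF2 carries initiator tRNA to the small ribosomal subunit. eIF1, eIF1A, eIF3 and eIF5 hold that complex in a form that can scan, eIF4F recruits it to the cap of the message, and eIF5B joins the large subunit at the start codon. eEF1A then delivers each aminoacyl tRNA and eEF2 moves the ribosome by a codon. The formation of lasting memory is known to be sensitive to inhibitors of protein synthesis.

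In the fits with all 7 samples only time had factors past the threshold given below. The direction of a factor went with the base composition of its message, and this held over all rows too. Spearman's correlation of transcript G and C content with the change was -0.81 over 58 factors and -0.77 over 15896 rows. The first 90 coding bases of the 3 largest rises and the 3 largest falls among factors with an average log2 CPM of at least 4, and of the paralogues Eef1a1 and Eef1a2, are shown 5′ to 3′ with every G and C in capitals. They are from GENCODE vM21 transcripts (GRCm38) matched to the RefSeq identifiers of the table.
Eif5b: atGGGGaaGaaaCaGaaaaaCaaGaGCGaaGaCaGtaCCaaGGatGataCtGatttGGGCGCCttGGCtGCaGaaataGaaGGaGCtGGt
Eif2s2: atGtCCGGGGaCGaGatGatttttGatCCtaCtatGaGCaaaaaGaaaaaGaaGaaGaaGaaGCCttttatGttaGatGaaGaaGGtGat
Eif3a: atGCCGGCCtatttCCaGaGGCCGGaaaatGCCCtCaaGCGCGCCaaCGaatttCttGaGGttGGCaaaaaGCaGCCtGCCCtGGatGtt
Eif6: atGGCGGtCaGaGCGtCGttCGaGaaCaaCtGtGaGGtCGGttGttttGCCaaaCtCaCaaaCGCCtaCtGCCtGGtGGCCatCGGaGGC
Eif3k: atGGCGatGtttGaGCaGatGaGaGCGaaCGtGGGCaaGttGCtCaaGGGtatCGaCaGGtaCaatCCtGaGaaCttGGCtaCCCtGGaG
Eef1g: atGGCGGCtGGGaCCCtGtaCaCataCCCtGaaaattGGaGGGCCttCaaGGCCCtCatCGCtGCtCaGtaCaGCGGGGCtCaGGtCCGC
Eef1a1: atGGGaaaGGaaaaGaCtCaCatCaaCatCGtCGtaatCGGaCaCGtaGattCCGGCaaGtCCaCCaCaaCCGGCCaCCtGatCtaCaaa
Eef1a2: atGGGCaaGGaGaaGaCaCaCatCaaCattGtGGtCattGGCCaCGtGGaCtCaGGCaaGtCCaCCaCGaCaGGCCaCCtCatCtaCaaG
Over the whole coding sequence G and C made up 43.2% in Eif5b, 39.8% in Eif2s2 and 46.5% in Eif3a, which rose, against 56.9% in Eif6, 54.0% in Eif3k and 52.6% in Eef1g, which fell. The 90-base stretch is not always typical, since that of Eif3a holds 54.4%. Eef1a1 and Eef1a2 differ at 15 of these 90 bases, all at the third codon position, and none of the 30 codons encodes a different amino acid. Their whole coding sequences hold 49.7% and 56.8% G and C, and only Eef1a2 fell.

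At 6 h against 1 h, 28 of the 58 testable factors passed the threshold (adjusted p of at most 0.05, edgeR quasi-likelihood test with Benjamini-Hochberg adjustment over all 16378 rows tested). Of these, 13 factors rose, led by Eif5b, Eif2s2, Eif3a and Eif5, and 15 fell, led by Eif6, Eef1akmt1, Eif3k and Eef1g. The background was wide, because 20.5% of all rows were called higher and 17.2% lower at 6 h. Among the factors the shares were 22.4% and 25.9%. The shares of all rows also stand beside the counts by complex and by list given below. The median change was -0.15 over the 58 factors and -0.04 over all rows, on the log2 scale. Eif4e1b had no count in any library and Eef1akmt4 was too low to test.

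**Figure D1:**
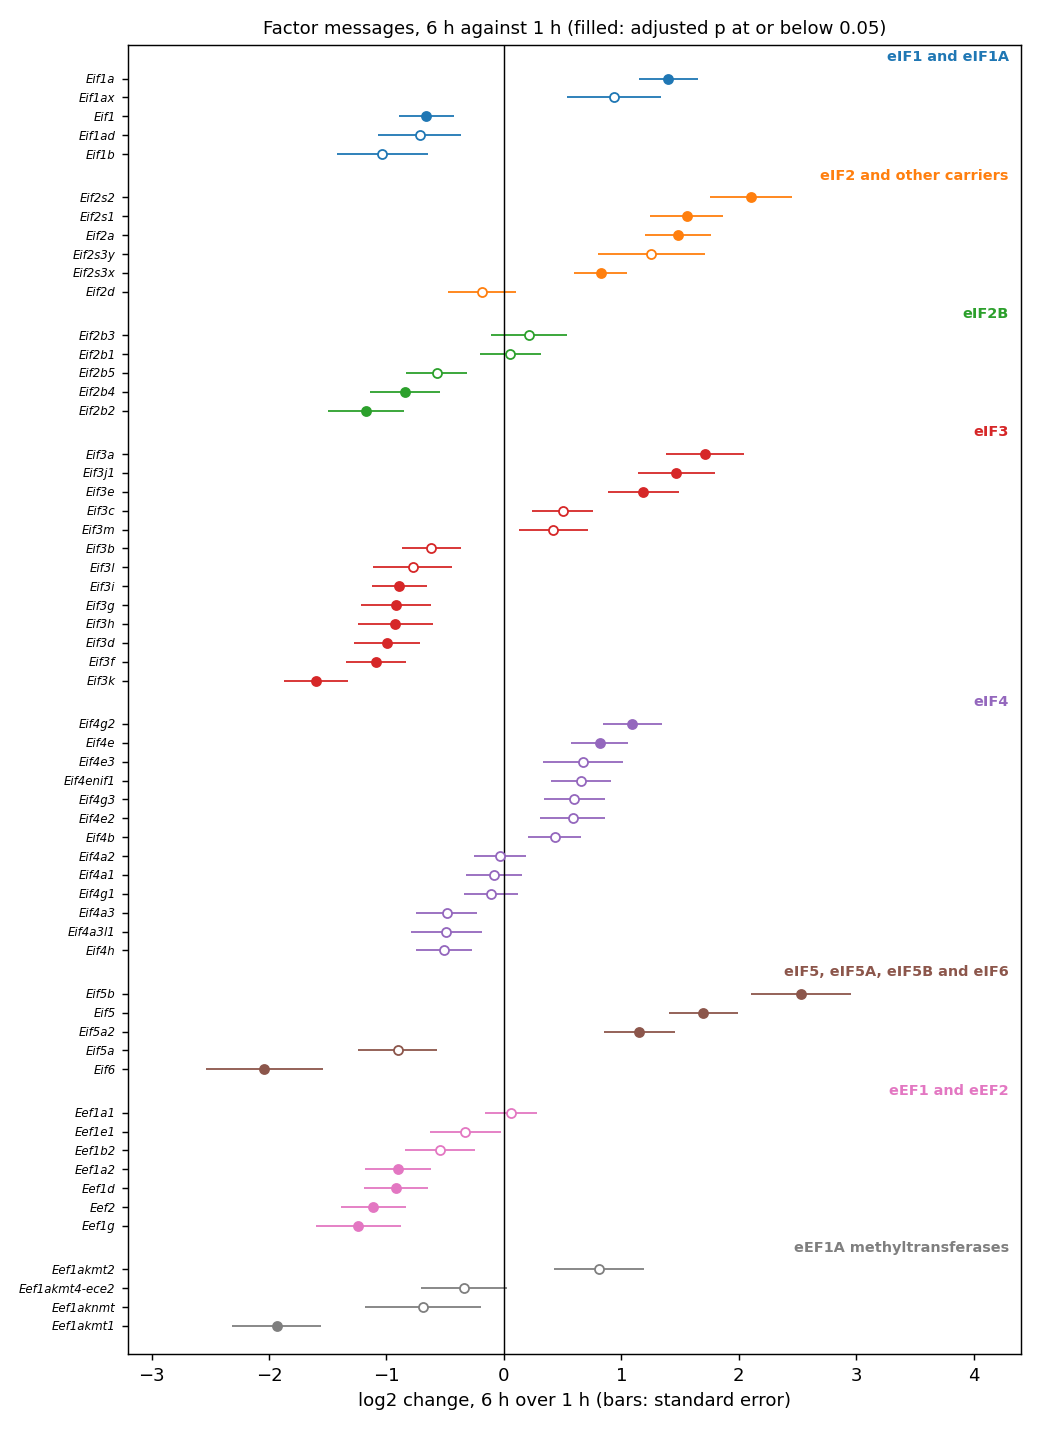
Fitted log2 change at 6 h over 1 h for the 58 tested factors, by complex, with the standard error as a bar and a filled point where the adjusted p was at or below 0.05. The eIF2 subunits sit on the right, the eEF1 and eEF2 genes at or left of 0, and eIF3 is spread from -1.60 (Eif3k) to 1.71 (Eif3a).

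These counts depend on single libraries. Leaving out the cortex control library at 1 h left no factor and no row past the threshold (0 of 16464 rows, of which 5532 had an unadjusted p under 0.05), with adjusted p of 0.071 for Eif5b, Eif2s2 and Eif3k. Without the hippocampus control library at 1 h 10 factors passed, and without the cortex conditioned library at 6 h 13 did. On CPM rescaled over the 7 samples, with the conditioned 1 h pair summed, the times did not overlap for 36 factors, 16 with every 6 h sample above every 1 h sample (24.4% of all rows) and 20 with every 6 h sample below (20.7% of all rows). For Eif5a2 and Eif1b, whose nearest values almost touch, this scale and the CPM of the 8 libraries differ on overlap. The p-values measure the spread between these samples, which may be technical.

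Among the scanning factors, Eif1a rose and Eif1 fell. eIF1 guards the choice of start codon and eIF1A helps the scanning complex form. In the text that follows the 4 values at each time are in the order cortex control, hippocampus control, cortex conditioned, hippocampus conditioned. Eif1a stood at 17.5, 20.2, 17.7 and 18.9 CPM at 1 h and at 41.8, 49.8, 54.3 and 46.0 CPM at 6 h. Every 6 h library was above every 1 h library, and the change was 1.40 (SE 0.25, adjusted p = 0.00643). Eif1ax, which encodes the same factor from the X chromosome, stood at 17.5, 27.6, 22.5 and 23.0 CPM and then at 28.2, 125, 19.5 and 28.3 CPM. Its 6 h libraries straddled the 1 h ones, with the hippocampus control library far above the rest, and its change of 0.94 did not pass (adjusted p = 0.0862). The ratio of Eif1a to Eif1ax was 0.731 to 1.00 at 1 h and 0.398 to 2.79 at 6 h, the lowest in the hippocampus control library. Eif1, the most abundant of the group, fell from 117, 183, 116 and 125 CPM to 84.7, 83.5, 83.5 and 79.1 CPM, a change of -0.66 (adjusted p = 0.0483). The 6 h values lay close together and below all 1 h values. Eif1b, a close relative of Eif1, had 22.0, 48.0, 30.5 and 32.0 CPM at 1 h and 21.6, 7.75, 19.5 and 14.5 CPM at 6 h. The nearest values of the 2 times, both in cortex controls, were almost equal, and the change of -1.04 did not pass (adjusted p = 0.0565). Eif1ad had a change of -0.72 that did not pass.

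Of the 6 eIF2 and carrier genes 4 rose, none fell and 2 did not pass, with a median change of 1.37. The 4 that rose had transcripts of 40.8% to 44.1% G and C, and 59.0% of all rows under 45% were called higher. Eif2s2, which encodes the beta subunit, stood at 16.7, 27.1, 18.8 and 19.2 CPM at 1 h and at 52.2, 176, 64.8 and 60.7 CPM at 6 h. All 6 h libraries were above all 1 h libraries, and the change was 2.10 (SE 0.35, adjusted p = 0.0064). Eif2s1, the alpha subunit whose phosphorylation slows initiation, changed by 1.56 (adjusted p = 0.00862). Eif2s3x, the X-linked gamma subunit that binds GTP and the tRNA, rose from 48.2, 57.5, 49.96 and 48.5 CPM to 85.3, 106, 77.2 and 78.4 CPM. The times did not overlap and the change was 0.82 (SE 0.23, adjusted p = 0.0205). Its Y-linked counterpart Eif2s3y was far lower, at 3.98, 4.18, 5.50 and 6.79 CPM and then 10.2, 19.9, 12.2 and 5.06 CPM. The hippocampus conditioned library at 6 h fell among the 1 h values, and the change of 1.26 did not pass (adjusted p = 0.0511). Eif2s3y stood at 0.0645 to 0.188 of Eif2s3x in the 8 libraries. Eif2a, which encodes a separate carrier of initiator tRNA and has the highest mean CPM of the group over the 8 libraries, though below Eif2s3x at 1 h, rose from 37.6, 41.5, 41.7 and 33.0 CPM to 79.6, 162, 94.0 and 83.3 CPM (1.48, adjusted p = 0.00759). Eif2d, another such carrier, had a change of -0.19 that did not pass. The summed level of the group was 141 to 169 CPM at 1 h and 289 to 593 CPM at 6 h.

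eIF2B is the exchange factor that reloads eIF2 with GTP. Of its 5 subunit genes 2 fell and none rose. Eif2b2 (beta) had 50.9, 34.3, 33.5 and 33.95 CPM at 1 h and 20.6, 7.19, 22.7 and 20.5 CPM at 6 h, all below the 1 h values, for a change of -1.17 (SE 0.32, adjusted p = 0.0204). Eif2b4 (delta) changed by -0.84 (adjusted p = 0.0458). Eif2b5, the catalytic epsilon subunit and the highest of the group in CPM, had 49.8, 47.6, 48.6 and 39.0 CPM and then 26.9, 38.7, 31.8 and 23.5 CPM. The 2 times did not overlap, the nearest values being 39.0 and 38.7 CPM, and the change of -0.57 did not pass (adjusted p = 0.0998). Eif2b1 (alpha), with 20.7, 22.7, 22.5 and 24.0 CPM and then 21.2, 16.6, 28.4 and 28.1 CPM, and Eif2b3 (gamma) showed changes of 0.06 and 0.21. The summed level of the 5 genes was 114 to 145 CPM at 1 h and 73.6 to 97.1 CPM at 6 h.

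eIF3, the largest initiation factor and the platform that holds the scanning complex, split within itself. Of its 13 measured subunit genes 3 rose (Eif3a, Eif3j1, Eif3e), 6 fell (Eif3k, Eif3f, Eif3d, Eif3h, Eif3g, Eif3i) and 4 did not pass. Eif3a encodes the core scaffold subunit. Its level was 157, 145, 140 and 133 CPM at 1 h and 397, 776, 402 and 251 CPM at 6 h, which did not overlap, and the change was 1.71 (SE 0.33, adjusted p = 0.00793). Eif3c, the subunit with the highest level, had 324, 297, 291 and 289 CPM and then 333, 587, 368 and 363 CPM. All 6 h values were above the 1 h values, by little in cortex, and the change of 0.50 did not pass (adjusted p = 0.141). Eif3k, a small subunit at the edge of the complex, had 81.1, 86.5, 73.3 and 64.0 CPM and then 26.9, 17.2, 36.8 and 23.9 CPM. No 6 h value came near a 1 h value, and the change was -1.60 (SE 0.27, adjusted p = 0.0064). The other 5 falls lay between -0.89 (Eif3i) and -1.09 (Eif3f). Eif3f and Eif3h are the pair of subunits with a fold shared with proteasome and deubiquitinase proteins, and Eif3d can bind the cap. Eif3j1, the loosely bound subunit at the decoding centre, changed by 1.47 (adjusted p = 0.0104) and Eif3e by 1.19 (adjusted p = 0.0157). Eif3j2 was not matched in the table. Apart from the loosely bound one, the subunits stand in equal numbers in the complex. Yet their messages ranged from 9.93 CPM per kb of transcript for Eif3b to 105 CPM per kb for Eif3c, as means over the libraries. Eif3j1 had 4.75 CPM per kb. The summed eIF3 level was 1003 to 1163 CPM at 1 h and 1048 to 1187 CPM at 6 h in all but the hippocampus control library at 6 h, which had 1685 CPM.

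The eIF4 group holds the genes that serve the cap and unwind the leader, with some relatives. Of 13 tested, 2 rose, none fell and 11 did not pass for time. Of all rows 20.5% were called higher and 17.2% lower. Eif4g2, the highest of the group in mean CPM but not per kb of transcript, encodes a relative of eIF4G without the site for eIF4E, and in the annotation its coding sequence does not begin with ATG. It rose from 387, 590, 385 and 389 CPM to 756, 1363, 762 and 724 CPM, without overlap (1.10, SE 0.25, adjusted p = 0.0119). Eif4e, the cap-binding subunit, changed by 0.82 (adjusted p = 0.0281). The scaffolds Eif4g1 and Eif4g3 changed by -0.11 and 0.60, neither past the threshold. Eif4h, which helps the helicase eIF4A, had 315, 258, 262 and 286 CPM and then 207, 143, 212 and 227 CPM. All 6 h values were below the 1 h values, and the change of -0.51, the lowest of the group, did not pass (adjusted p = 0.106). Neither of the main helicase paralogues passed. Eif4a1 had 144, 151, 151 and 130 CPM and then 106, 121, 152 and 186 CPM, and Eif4a2 had 293, 304, 244 and 253 CPM and then 286, 248, 272 and 241 CPM. Their times overlapped, and the changes were -0.08 and -0.03, with standard errors of 0.24 and 0.22. Eif4a2 stood at 1.3 to 2.69 times Eif4a1 in CPM, and at 1.26 times as a mean per kb.

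The factors of subunit joining held the largest rise and the largest fall of all 58. Eif5b, the GTPase that joins the large subunit, had 62.5, 71.2, 56.6 and 61.1 CPM at 1 h and 268, 812, 258 and 158 CPM at 6 h. The 1 h values were tight (62.3 ± 4.12 CPM, SD, n = 3 with the conditioned pair counted once) and the 6 h values spread widely (373 ± 291 CPM, SD, n = 4). The change was 2.53 (SE 0.43, adjusted p = 0.0064). Eif6, which keeps the large subunit from joining too early, had 55.4, 47.3, 43.1 and 44.6 CPM and then 21.4, 0.553, 18.5 and 11.3 CPM. The value of 0.553 CPM in the hippocampus control library is a single count. The change was -2.04 (SE 0.50, adjusted p = 0.0137). Without that library Eif5b changed by 1.84 (adjusted p = 0.00173) and Eif6 by -1.51 (adjusted p = 0.00191), and likewise Eif2s2 by 1.61 and Eif3a by 1.23. Eif5, the GTPase activator of eIF2, changed by 1.699 (SE 0.29, adjusted p = 0.0064), from 67.9 ± 13.8 CPM (SD, n = 3) to 212 ± 65.8 CPM (SD, n = 4).

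The hypusine-bearing factor eIF5A, which helps ribosomes through difficult peptide bonds, has 2 genes with fitted changes of opposite sign. Eif5a had 199, 219, 196 and 190 CPM and then 126, 48.7, 122 and 161 CPM, without overlap, but the change of -0.90 did not pass (adjusted p = 0.0568). Eif5a2 rose from 14.3, 31.3, 16.7 and 17.9 CPM to 35.6, 63.6, 38.7 and 31.3 CPM (1.15, adjusted p = 0.017). The nearest values, 31.31 CPM in the hippocampus control at 1 h and 31.28 CPM in the hippocampus conditioned library at 6 h, were almost equal. The ratio of Eif5a2 to Eif5a was 0.0721 to 0.143 at 1 h and 0.194 to 1.31 at 6 h, again most extreme in the hippocampus control library. In a further fit, given below, each library's trend with G and C content and transcript length was removed. The changes were then -0.09 for Eif5a and -0.27 for Eif5a2, and neither passed. Their coding sequences share no exact 30-base window, and neither do those of Eef1a1 and Eef1a2, Eif4a1 and Eif4a2, or Eif1a and Eif1ax. Those of Eif2s3x and Eif2s3y share 5 windows (0.4% of Eif2s3x), and Eif4a3 shares 33.7% of its windows with Eif4a3l1, so counts of the last pair are uncertain.

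Of the 7 eEF1 and eEF2 genes 4 fell, none rose, and the median change was -0.90. Per kb of transcript the order of mean levels was Eef1a1 (281 CPM per kb), Eef1a2 (192), Eef2 (150) and Eif5a (110), followed by Eif3c (105) and Eif4a2 (98.8). Eef2, the translocase, had 846, 504, 591 and 593 CPM and then 306, 215, 284 and 366 CPM, a change of -1.11 (SE 0.27, adjusted p = 0.0143). Eef1g, part of the exchange complex of eEF1A, had 115, 128, 109 and 114 CPM and then 63.3, 18.3, 92.3 and 57.0 CPM. Both genes kept all 6 h values below all 1 h values, and the change of Eef1g was -1.24 (SE 0.36, adjusted p = 0.0254). Eef1d, another exchange subunit, changed by -0.92 (adjusted p = 0.0265), while Eef1b2 (-0.55) and Eef1e1 (-0.33), a scaffold protein of the tRNA synthetase complex, did not pass.

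Of the eEF1A paralogues 1 passed. Eef1a2 is the form that takes over from Eef1a1 in mature neurons and muscle. Eef1a1 had 445, 657, 443 and 448 CPM at 1 h and 417, 697, 373 and 554 CPM at 6 h. The times overlapped and the change was 0.06 (SE 0.22, adjusted p = 0.845). Eef1a2 had 641, 361, 541 and 574 CPM and then 283, 236, 225 and 336 CPM, without overlap, a change of -0.90 (SE 0.28, adjusted p = 0.0303). The ratio of Eef1a2 to Eef1a1 at 1 h was 1.44 in cortex and 0.550 in hippocampus of the controls, and 1.22 and 1.28 in the conditioned pair. At 6 h it was 0.679, 0.338, 0.602 and 0.605. In both control comparisons hippocampus was the lower tissue, and in the conditioned libraries at 6 h the tissues were almost equal. Eef1akmt1, a lysine methyltransferase of eEF1A and the most abundant of its group, fell from 15.4, 17.2, 12.6 and 15.3 CPM to 5.48, 1.11, 5.72 and 3.22 CPM (-1.93, SE 0.38, adjusted p = 0.008). The other 3 tested genes of that group did not pass.

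**Figure D2:**
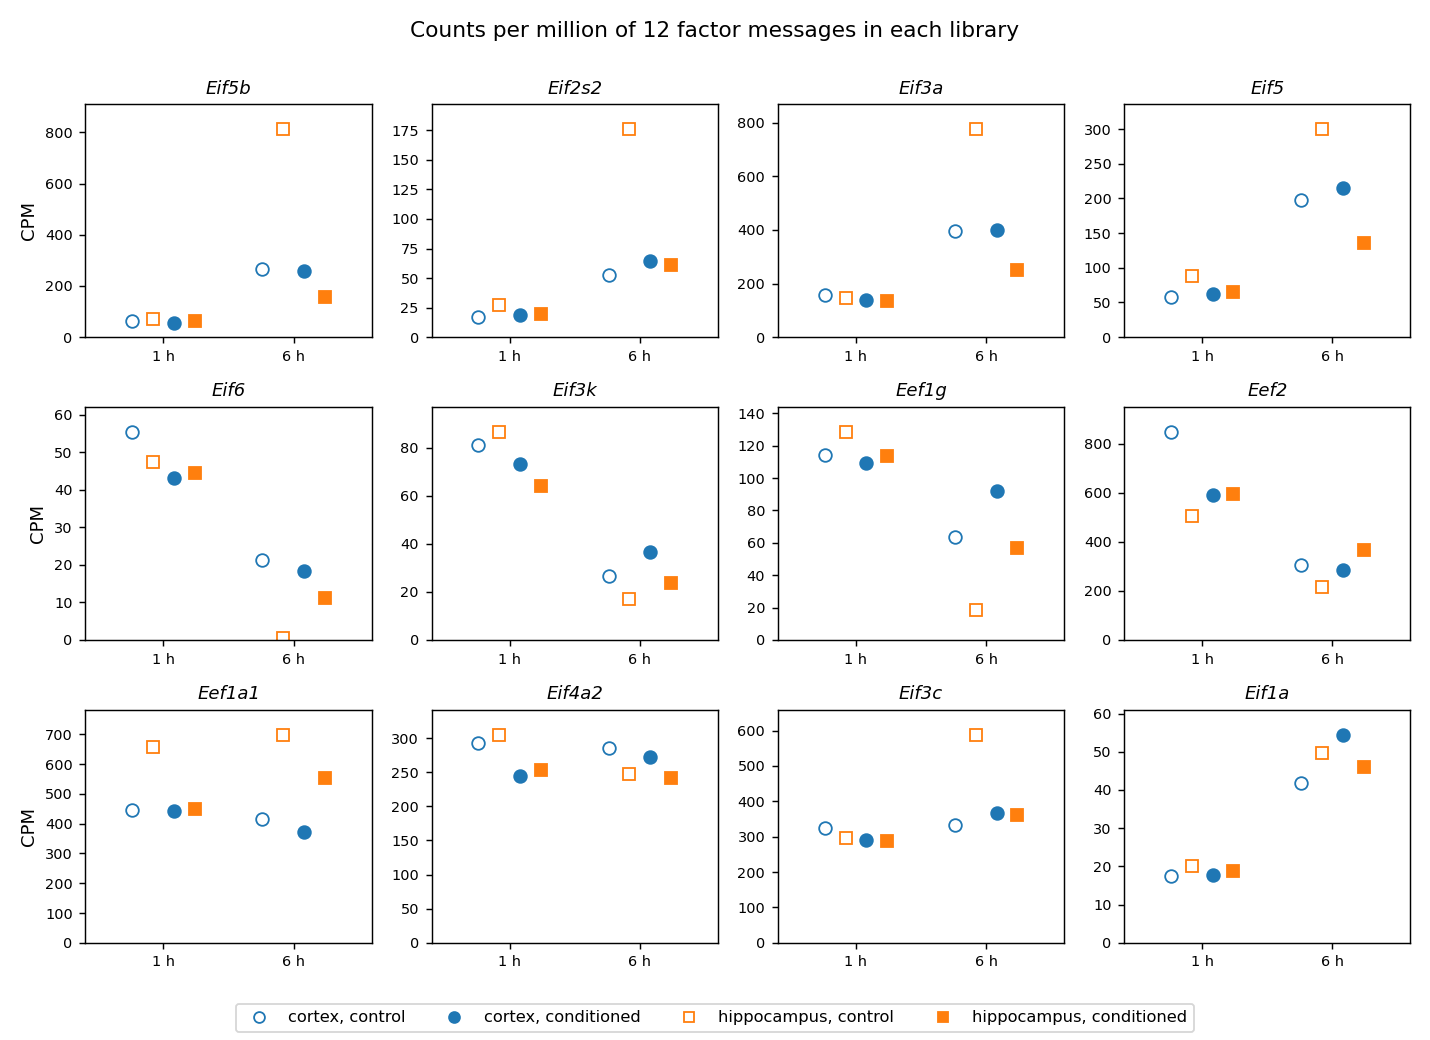
Level in CPM of 12 factor messages in each of the 8 libraries, at 1 h (left of each panel) and 6 h (right), by tissue and training, each axis starting at 0. In the top row every 6 h library is above every 1 h library, in the middle row every 6 h library is below, and the hippocampus control library at 6 h (open square) is the most extreme 6 h value in all 8 of these panels.

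Beside the changes with time, the base composition of the counted messages moved. The count-weighted mean G and C content (GC) of the transcripts was 51.1% to 51.5% in the 1 h libraries and 47.7% to 49.8% in the 6 h libraries. The 13 factors that rose had transcripts of 38.8% to 44.5% GC and the 15 that fell 49.8% to 60.6%, so the 2 sets did not overlap. At the third codon position the ranges were 36.3% to 44.2% and 49.1% to 76.3%. As a description, Spearman's correlation of transcript GC with the change was -0.81 over the 58 factors and -0.77 over the 15896 tested rows with a known transcript, which share the same libraries. Transcript length went the other way, at 0.57 and 0.34. For the factors alone the correlation was -0.83 with GC at the third codon position, -0.67 with GC of the 3′ untranslated region, 0.55 with its length and 0.13 with coding length.

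By class of transcript GC the factors and all messages compared as follows. Of 19 factors under 45% GC, 13 rose and none fell, while 59.0% of all rows in that class were called higher. Of 9 factors at 55% or more, 7 fell and none rose, while 48.6% of all rows in that class were called lower. Between 45% and 50% none of 10 factors rose and 1 fell, where 23.3% of all rows were called higher and 2.3% lower, and the medians were 0.14 for the factors and 0.36 for all rows. Between 50% and 55% none of 20 rose and 7 fell, where 4.7% of all rows were called higher and 15.5% lower, with medians of -0.70 and -0.30. Within eIF3 the 3 subunits that rose had 40.3% to 44.5% GC and the 6 that fell 49.8% to 55.8%. Eif4a2 was an exception, at 40.2% GC with a change of -0.03, and so were Eef1e1 at 44.1% with -0.33 and Eef1b2 at 46.2% with -0.55.

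**Figure D3:**
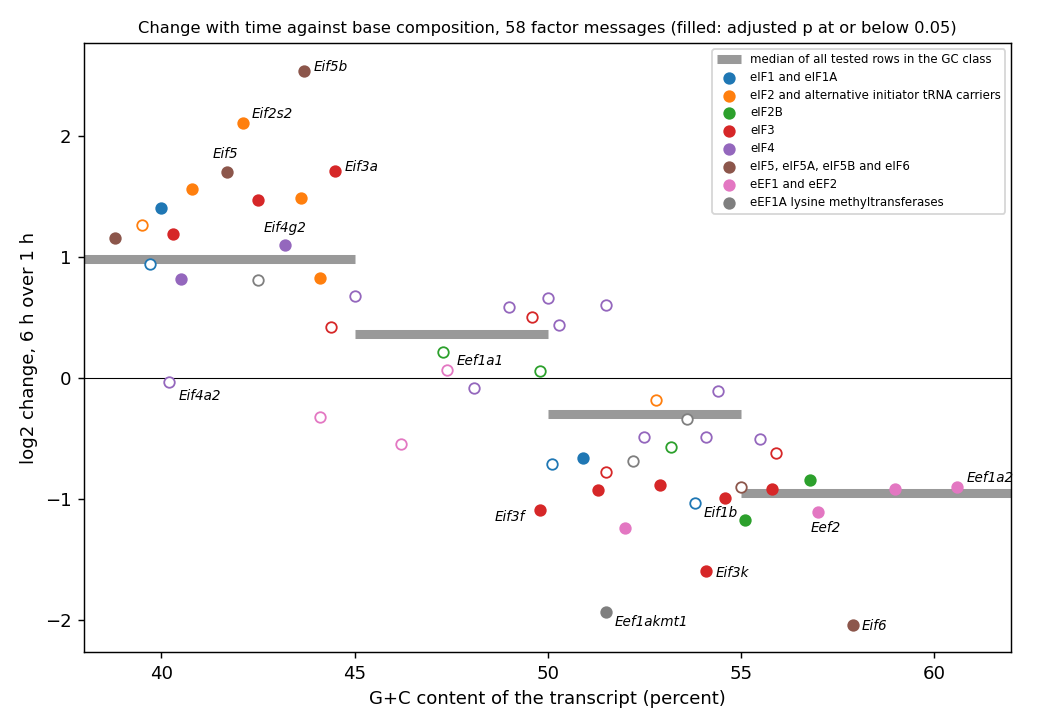
Log2 change at 6 h over 1 h against the G+C content of the transcript for 58 factors, coloured by complex and filled where the adjusted p was at or below 0.05, with the median of all tested rows in 4 GC classes as grey bars (the outer classes are open-ended). Factors under 45% lie mostly above 0 and those over 50% mostly below, and Eef1akmt1 and Eif5b lie farthest from the grey bars.

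When each library's trend with GC and transcript length was removed, 8 of the 58 factors passed for time. Eif5b (1.53, adjusted p = 0.0137), Eif2s2 (1.13, adjusted p = 0.0211) and Eif3a (0.89, adjusted p = 0.0333) were higher at 6 h, against a background of 6.95% of rows. Eef1akmt1 (-1.44, adjusted p = 0.0158), Eif4a2 (-1.18, adjusted p = 0.012), Eif3f (-1.14, adjusted p = 0.0142), Eef1e1 (-1.02, adjusted p = 0.0343) and Eef1b2 (-0.94, adjusted p = 0.0323) were lower, against 4.09%. The first 3 and Eef1akmt1 and Eif3f also passed without the removal. Eif4a2, Eef1e1 and Eef1b2 passed only with it. The other 2 rows of Eif4a2, which share most of its reads, gave -0.81 and -0.89. The median change of the eIF2 and carrier genes was then 0.29, with 1 gene called, that of the eEF1 and eEF2 genes -0.26, with 2 called, and the sign of Eef1a2 turned (0.30, adjusted p = 0.513). Removing such a trend also removes any change that truly goes with base composition, and the part of either in these values was not tested.

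**Figure D4:**
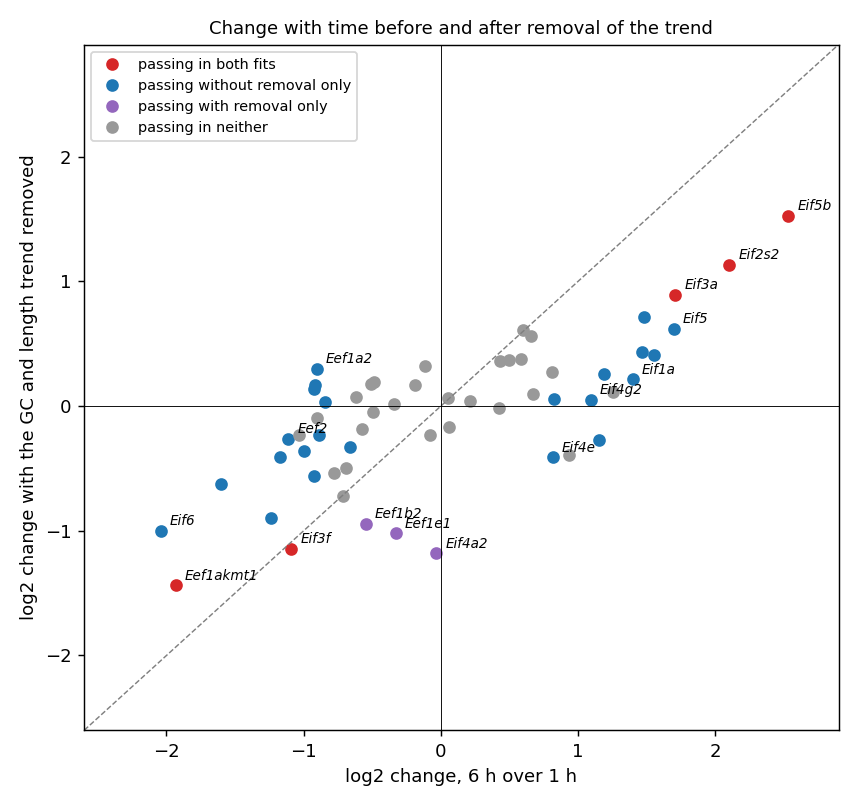
Log2 change at 6 h over 1 h of 58 factors as fitted (horizontal) and with each library's GC and length trend removed (vertical), coloured by the fit in which the factor passed, with equality dashed. The 5 red points (Eif5b, Eif2s2, Eif3a, Eif3f, Eef1akmt1) passed in both fits and the 3 purple points (Eif4a2, Eef1e1, Eef1b2) only after removal.

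Other values were also compared between the times. The summed level of 5 nuclear noncoding RNAs, mostly Malat1, was 608 to 2865 CPM at 1 h and 2954 to 15528 CPM at 6 h. Of the 4 tested, Malat1 (2.59) and Meg3 (2.04) rose and 2 did not pass. The sum of 4 matched erythroid genes was 66.7 to 103 CPM and then 10.5 to 70.1 CPM. These ranges overlapped, and none of the 3 erythroid genes tested passed. Hba-a1 and Hba-a2, with the same values in every library, are both in that sum. The sum of 5 neuronal markers was 7960 to 10820 CPM and then 16815 to 27370 CPM, most of it Snap25. Of the 5, Snap25 (1.598) and Syt1 (0.88) rose, Tubb3 (-1.71) and Eno2 (-1.35) fell and Rbfox3 did not pass. Their part in the factors' changes was not tested.

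Messages of the translation machinery often start with a run of pyrimidines at the cap (the terminal oligopyrimidine, or TOP, motif), which places them under mTOR and Larp1. Of 9 factors listed as TOP messages from general knowledge, 5 fell (Eef2, Eef1g, Eef1d, Eif3f, Eif3h), Eif3e rose and 3 did not pass, with a median change of -0.92. With the GC and length trend removed 2 were lower (Eif3f, Eef1b2) and none higher. In RefSeq promoters (GRCm38.p6) of the 48 factors that matched, 10 (20.8%) had a C followed by at least 4 bases that are each C or T, beginning within 2 bases of the annotated start on the sense strand, against 10.6% of 27025 genes. The longest such run, in capitals, was in Eif3f, which fell, and the next in Eif2s3x, which rose, and Eif2s3y. The windows of the first pair run from 10 bases before to 20 bases after the start.
Eif3f, chr7:108934405-108934434, plus strand: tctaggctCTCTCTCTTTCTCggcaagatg
Eif2s3x, chrX:94212632-94212661, minus strand: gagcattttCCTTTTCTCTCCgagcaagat
The other 8 factors with the run did not pass for time. Of the TOP factors named above by symbol, only Eif3f was among those found with the run. The share with the run is therefore not a count of the listed TOP messages. A run of these letters is a description of the annotated start and not a measurement of the 5′ end in these samples.

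Genes that regulate the factors were counted in the same way, beside the 20.5% of all rows called higher and 17.2% called lower at 6 h. Of 12 tested genes around 4E-BP and eIF4F, 3 rose and 2 fell: the poly(A)-binding protein gene Pabpc1 (0.81) and its partner Paip1 (1.26) were higher, and the eIF4E kinase gene Mknk2 (-1.47) and Eif4ebp2 (-1.06), the main 4E-BP of brain, were lower. Of 9 eIF2 kinases and phosphatases and their downstream genes, only Eif2ak2 (1.64), the kinase PKR, passed. Its level was low, at an average log2 CPM of 1.44. Mknk2 above and Mtrf1 below were also low, at 2.57 and 2.3. Of 10 genes of the mTOR and eEF2 kinase branch, the S6 kinase Rps6kb1 rose (1.91) and Tsc2 (-0.96) and Rptor (-0.78) fell. Of 10 scanning, release and recycling factors 5 rose and none fell, with Abce1 (1.23), which splits ribosomes after termination, and the release factor Gspt1 (1.09) the largest. Of 8 mitochondrial translation factors Mtif2 (1.39) and Mtrf1 (0.98) rose and Tufm (-1.92), the mitochondrial EF-Tu, fell. With the GC and length trend removed, 1 gene of these 5 lists was higher, Larp1 (0.77), against 6.95% of all rows. Then 2 were lower, Paip2b (-1.23) and Tufm (-1.07), against 4.09%. Of these only Tufm had passed as fitted, and none of the other genes named above passed after the removal. For tissue and training no gene of the lists passed as fitted. With the trend removed Ddx3x, a helicase gene of the scanning list, was lower in hippocampus (-0.87, adjusted p = 0.0282).

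No factor passed for tissue, hippocampus against cortex, where 3.43% of all rows did. The median difference over the 58 factors was 0.01. The nearest were Eif1ax, higher in hippocampus by 1.24 (SE 0.44, adjusted p = 0.192), Eef1a1, higher by 0.61 (SE 0.23, adjusted p = 0.227), and Eif3d, with a difference of -0.78 (SE 0.30, adjusted p = 0.236). Eif1ax was higher in hippocampus in the controls at 1 h (log2 ratio 0.588) and in the conditioned libraries at 6 h (0.528). The ratio was largest in the controls at 6 h (2.11), where the hippocampus control library had 125 CPM. Without that library 1 factor passed, the scaffold Eif4g3, lower in hippocampus by -0.77 (adjusted p = 0.0225). It had 281 and 174 CPM in the cortex and hippocampus controls at 1 h and 343 and 207 CPM in the conditioned libraries at 6 h. In the fit with all samples 7 of 7 hippocampal markers were higher in hippocampus and 6 of 7 cortical markers lower. The difference between tissues in the change with time passed for no factor and no row (0% of rows, 372 of 16378 at an unadjusted p under 0.05, edgeR). The largest such difference was that of Eif1b, at -1.90 (adjusted p = 0.999).

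No factor passed for training, fear conditioned against context alone. The share of all rows called was 0%, with 296 of 16378 rows at an unadjusted p under 0.05 in edgeR, and DESeq2 and limma-voom also called 0. The factors' median difference was -0.02 and their range -0.79 to 0.58. Eif3e had the lowest p, with a difference of -0.74 (SE 0.30, unadjusted p = 0.0321, adjusted p = 0.943). It was 10.1, 18.6, 11 and 12.4 CPM at 1 h and 31.4, 48.1, 18.5 and 17.9 CPM at 6 h. Both conditioned libraries at 6 h were below both controls at 6 h, whereas at 1 h the conditioned pair lay between the controls. Eif1ax, Eif5b and Eif3g had differences of -0.79, -0.79 and 0.58. Training was also fitted separately at each time over the same 7 samples in edgeR. For 6 h the share of rows called was again 0% (642 of 16990 at an unadjusted p under 0.05). The same 4 factors had differences of -1.43 for Eif1ax, -1.27 for Eif5b, -1.09 for Eif3e and 1.03 for Eif3g, each with an adjusted p of 0.928.

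The 6 h ratios had a wider spread in hippocampus, where the control is the library that stood apart. In cortex the log2 ratios of the conditioned to the control library had an SD of 0.34 over the 58 factors, and in hippocampus 1.19. The ratios of 6 h to 1 h had an SD of 1.71 for the hippocampus control, over the hippocampus control at 1 h. The SD was 0.82 for the hippocampus conditioned library, over the summed conditioned 1 h pair, which has no tissue. The tissue ratios had an SD of 1.09 in the controls at 6 h and 0.49 in the conditioned libraries at 6 h. Each is 1 library against 1, or against the summed pair, with no replicate check, and the intervals cover counting error only. In cortex Eif5b was at a ratio near 1 (258 against 268 CPM), and in hippocampus it was 0.198 (95% exact interval 0.181 to 0.217, 687 against 1468 counts). Eif6 in hippocampus had 49 counts against 1, a ratio of 20.8 with an interval of 3.55 to 836. Eif5a had a ratio of 3.37 (2.70 to 4.25) and Eif3a one of 0.330 (0.304 to 0.357). Spearman's correlation of these log2 ratios with transcript GC was 0.65 over the factors in hippocampus and -0.06 in cortex, and 0.61 and -0.09 over all rows. Eif3g had a ratio of 1.63 in cortex (1.38 to 1.91) and 2.74 in hippocampus (2.05 to 3.72), with higher values in both conditioned libraries at 6 h, 76.1 and 80.3 CPM, than in the controls, 46.9 and 29.9 CPM. At 1 h its pair, at 91.0 and 97.5 CPM, was below both controls, at 107 and 99.0 CPM.

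**Figure D5:**
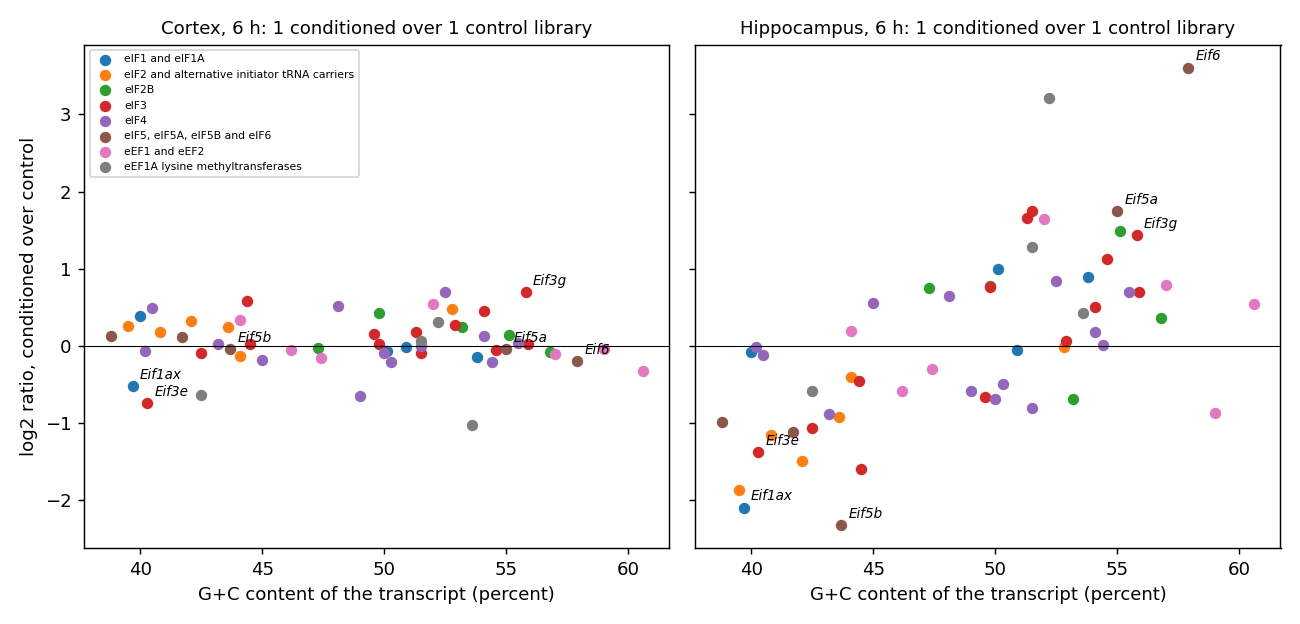
Log2 ratio of the conditioned to the control library at 6 h (prior count 2) against the G+C content of the transcript for 58 factors, in cortex and in hippocampus, coloured by complex. The cortex ratios go from -1.03 (Eef1akmt4-ece2) to 0.70 (Eif3g), and the hippocampus ratios go from -2.33 (Eif5b) to 3.61 (Eif6) and rise with G+C content.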

How the data were processed

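Polyribosome-associated mRNA was depleted of ribosomal RNA and amplified from random hexamer and poly A priming, per the labels' protocols. The submitters' processing notes name limma 3.12.3, edgeR 2.612, TopHat 1.3.1, CASAVA 1.7 and mm9 without their role. The authors deposited raw counts per RefSeq transcript for 8 libraries. The sources used here do not give how shared reads or strand were counted, and in 12 factors with several rows the lowest row held 25.6% to 100.0% of the top row's count. Of 28157 rows 27563 were matched to a symbol (RefSeq GRCm38.p6, then GENCODE vM21). GC and length are those of GENCODE transcripts.

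The tests were edgeR 4.0.16 quasi-likelihood fits on all rows left by filterByExpr, with TMM factors, terms for tissue, training and time over 7 samples (the conditioned 1 h pair summed and coded 0.5 for tissue), and Benjamini-Hochberg adjustment at 0.05. For training at 6 h, training was nested in time over the same 7 samples, which left 2 residual degrees of freedom. DESeq2 1.42.0 and limma 3.58.1 (voom) were alternatives. A standard error (SE) is the log2 change divided by the square root of F. The GC and length trend was removed with splines per library. The fit was also run on simulated counts with a single fixed dispersion and no trend with GC or length. That run cannot show how such a trend bears on the calls. The members, lists and tests were chosen with earlier results of these data known. Factors given in all libraries are, per complex, the most abundant and those with the largest rise and fall (average log2 CPM of at least 4), and paralogue pairs; of regulator lists, up to 2 rises and 2 falls. Eef2, Eif3e and Eif3g were added after their values were seen.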

Additional observations from a re-analysis of the deposited data

How the results depend on the processing

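The number of factors called for time was 28 and stayed within 1.5 times of that with both conditioned 1 h libraries kept (31) or left out (22), with relative log expression or upper-quartile factors (30 each), without the filter on low counts (27), with DESeq2 (30), limma-voom (29) and with all rows of a gene summed (26). Upper-quartile factors moved the median of all rows from -0.04 to -0.15, and all 28 factors kept their call and direction. Leaving out 1 library gave 0 to 36 factors, and 1 library fewer leaves 2 residual degrees of freedom. With the GC and length trend removed 8 passed, and 7, all among the 28, passed without both the conditioned 1 h pair and the hippocampus control library at 6 h, an alternative chosen after seeing the data. With the trend removed 6 called factors changed sign: Eef1a2 (0.30), Eef1d (0.17), Eif2b4 (0.032), Eif3g (0.13), Eif4e (-0.41) and Eif5a2 (-0.27); the cause was not tested. Eif5b, Eif2s2 and Eif3a passed in 17 of 18 alternatives. For tissue 0 to 1 factors passed with 1 library left out and 0 otherwise; for training, training at 6 h and the interaction, 0 passed in every alternative run. No paired analysis was possible because every group holds 1 library. At this depth Eif4e1b had 0 counts and Eef1akmt4 too few to test.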
